A study of Mus musculus with 30 samples.

Results

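The interferon regulatory factors (IRFs) are transcription factors of the interferon response. Described here are 8 mouse genes of the family, Irf1, Irf2, Irf3, Irf4, Irf5, Irf7, Irf8 and Irf9, chosen by symbol and each found as 1 Ensembl gene among the 55414 genes of the deposited count files. All 8 were among the 15686 genes that passed the filter on low counts.

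Their transcripts were measured by polyA RNA sequencing of bone marrow derived macrophages (BMDMs), which are macrophages grown from mouse bone marrow. Marrow from wild-type (WT) mice and from transgenic mice with a TRα1 mutation (TRα1PV, called TRαPV in the growth protocol) was cultured for 7 days with 15 or 20% L929-conditioned medium. TRα1 is a thyroid hormone receptor encoded by Thra. BMDMs of both genotypes were left unstimulated (M0), were given 20 ng/mL lipopolysaccharide (LPS) with 20 ng/mL interferon-γ (M1), or were given 20 ng/mL interleukin-4 (M2). Each of the 6 groups had 5 libraries, numbered as biological replicates 1 to 5. The labels leave out zygosity, the age and sex of the mice, the duration of stimulation and whether each replicate came from its own mouse, so p-values measure the spread between these libraries. A count per gene cannot tell mutant Thra transcripts from normal ones, and the genotype of each library therefore rests on its label.

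IRF proteins share a DNA-binding domain at the N terminus that reads GAAA repeats, the core of the interferon-stimulated response element (ISRE). IRF3 and IRF7 lie downstream of sensors of microbial products and drive type I interferon genes once phosphorylated. The secreted interferon then acts through JAK kinases on STAT proteins, STAT2 among them, which join IRF9 in the complex ISGF3, and Irf7 and the antiviral genes are among the targets of that complex. Interferon-γ acts at GAS elements, and Irf1 is a classical target of this route. IRF2 competes with IRF1 for the same sites, IRF5 acts in toll-like receptor signalling toward inflammatory cytokines, IRF8 pairs with PU.1 (Spi1) in the monocyte and macrophage lineage, and IRF4 is known for its part in alternative activation by interleukin-4.

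Promoter windows were found in RefSeq (build GRCm38.p6, not the build of the count files) for all 8 genes, as 11 windows of 250 bases before and 50 after an annotated start. They were searched on both strands for ISRE letters (GAAA and GAAA with any 2 bases between), GAS letters (TTC and GAA with any 3 between), the wider-spaced STAT6 letters (TTC and GAA with any 4 between), the PU.1 and IRF composite EICE (GGAA and GAAA with any 2 between) and the κB motif by name. The lines that follow give the 250 bases before the start of Irf1, Irf2 and Irf8, the genes with matches in this stretch and with higher levels in M1, and of Irf7, whose level differed most between genotypes in M0. Capitals mark matches, and each line runs 5′ to 3′ on the strand of the gene.
Irf1, chr11:53769764-53770013, plus strand: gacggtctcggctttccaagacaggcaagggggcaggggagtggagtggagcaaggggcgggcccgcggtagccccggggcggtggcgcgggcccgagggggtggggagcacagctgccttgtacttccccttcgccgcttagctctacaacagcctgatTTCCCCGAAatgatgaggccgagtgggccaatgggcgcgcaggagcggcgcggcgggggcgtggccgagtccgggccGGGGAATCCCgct
Irf2, chr8:46739495-46739744, plus strand: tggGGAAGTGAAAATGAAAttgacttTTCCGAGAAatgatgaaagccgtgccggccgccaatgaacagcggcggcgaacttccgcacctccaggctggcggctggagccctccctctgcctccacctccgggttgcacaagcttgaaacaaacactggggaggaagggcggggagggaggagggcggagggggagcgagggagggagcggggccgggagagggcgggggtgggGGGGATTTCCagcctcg
Irf8, chr8:120736108-120736357, plus strand: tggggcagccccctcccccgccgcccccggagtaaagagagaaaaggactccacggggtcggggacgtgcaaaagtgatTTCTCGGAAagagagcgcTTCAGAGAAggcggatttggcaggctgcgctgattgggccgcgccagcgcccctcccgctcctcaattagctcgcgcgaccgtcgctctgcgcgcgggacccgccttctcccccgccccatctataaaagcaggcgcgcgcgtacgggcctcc
Irf7, chr7:141266425-141266674, minus strand: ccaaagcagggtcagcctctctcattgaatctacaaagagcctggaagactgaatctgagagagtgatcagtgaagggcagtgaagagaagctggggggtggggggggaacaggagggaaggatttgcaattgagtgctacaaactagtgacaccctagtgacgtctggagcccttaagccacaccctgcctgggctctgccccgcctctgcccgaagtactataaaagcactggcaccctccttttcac

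The Irf1 stretch held 1 GAS match starting 90 bases before the start site and 1 κB match starting 13 bases before it. The Irf8 stretch held 2 GAS matches, starting 171 and 153 bases before the start. The Irf2 stretch held an ISRE match starting 241 bases before the start, which overlaps an EICE match that begins 247 bases before it, and a GAS match and a κB match starting 224 and 17 bases before it. The 1 other match among the members was a STAT6 site that starts 1 base after the first transcribed base of an Irf9 window. None of these letters was found in the Irf3, Irf4, Irf5 or Irf7 windows. Of the 32851 windows of the same length in the table, 3.44% held the ISRE letters, 8.30% the GAS letters, 6.95% the STAT6 letters, 2.72% the EICE letters and 8.46% the κB motif. A match describes the sequence and is not a measured binding site.

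Reads assigned to genes ranged from 23015952 to 59086252 per library. Levels are given as read counts scaled to library size (CPM, the usual per-library scale) on TMM-scaled library sizes, and differences as log2 fold changes with their standard errors from 1 edgeR quasi-likelihood fit over all 30 libraries. A gene was called where its Benjamini-Hochberg adjusted p over all 15686 genes was under 0.05. Macrophage markers (Adgre1, Csf1r, Cd68, Lyz2, Itgam, Mertk and Fcgr1) were detected in every group, with summed levels of 26355 to 33582 CPM in the M0 libraries. T and NK cell markers reached at most 0.135 CPM in sum in any library. The library WT M0 replicate 2 stood apart, with 4.56% of its gene reads from mitochondrial genes, where the other 4 libraries of its group had 0.921 to 2.07%. Several M0 genotype results are given with and without it, and others as ranges over alternatives that include its removal.

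Levels of the 8 genes differed widely. Levels per kilobase of exon allow for gene length, counting all annotated exons and not only those of the transcripts expressed. On this scale Irf5 was the highest member in WT M0 with 57.1 CPM per kb, followed by Irf8 with 35.3 and Irf1 with 32.0. Irf4 was the lowest there with 2.13 CPM per kb. In WT M1 the order by level was Irf7 with 685 CPM per kb, Irf1 with 508 and then Irf5, while Irf4 stood at 0.0616. In WT M2 Irf5 led again with 84.5 CPM per kb, Irf1 stood at 70.7, and Irf4 at 22.1 was above Irf8 at 20.2 and Irf7 at 4.97. Several of these orders rest on the exon lengths. In CPM, Irf8 at 249 was the highest member in WT M0, above Irf5 at 166. In WT M2, Irf1 at 281 CPM was above Irf5 at 245 CPM, and Irf8 at 142 CPM was above Irf4 at 108 CPM. Over the 6 group means in CPM, the ratio of the highest to the lowest was 435 for Irf4, 145 for Irf7, 17.5 for Irf1, 4.14 for Irf5, 3.76 for Irf9, 2.92 for Irf8, 1.90 for Irf2 and 1.83 for Irf3.

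**Figure D1:**
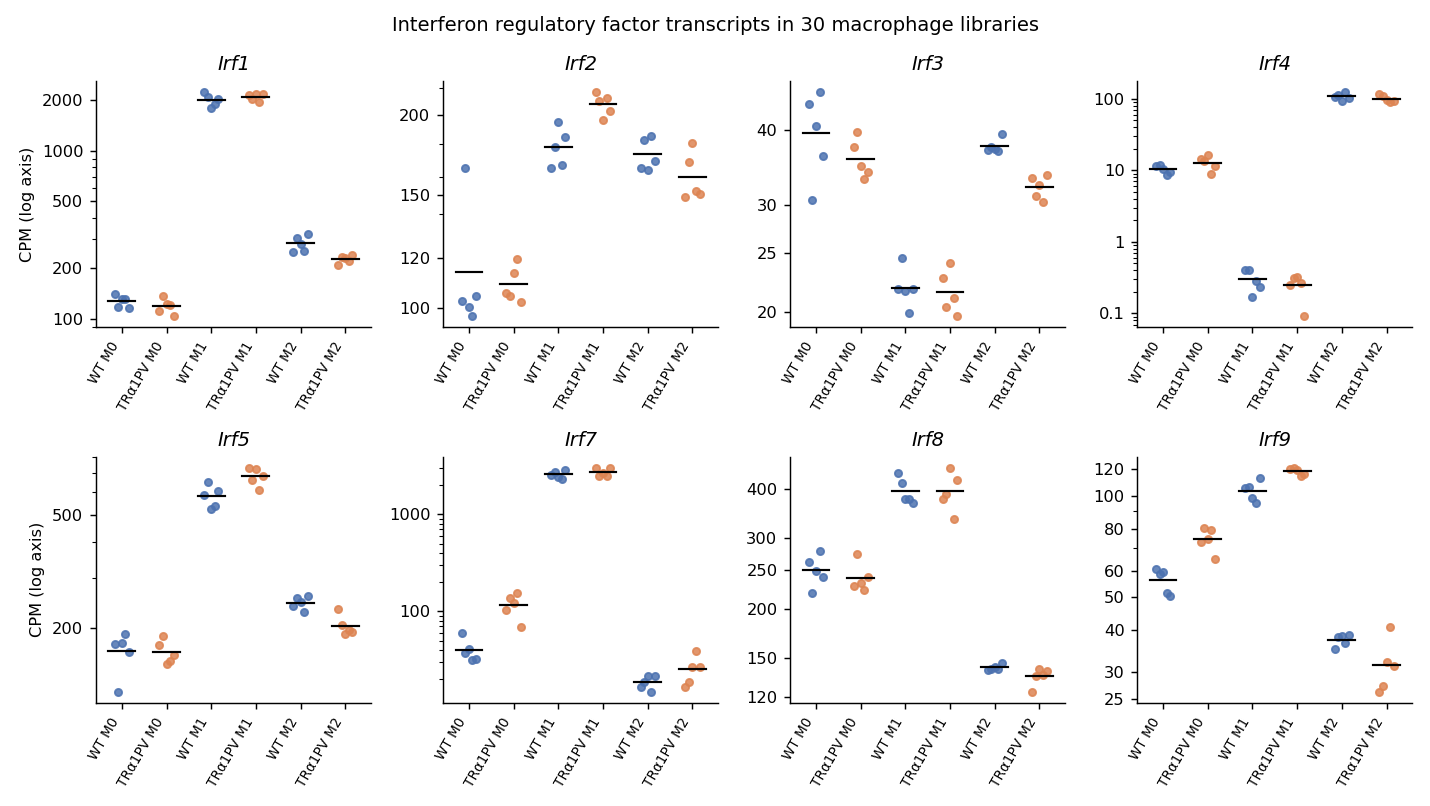
CPM on a log axis (scale differs by gene) of each IRF gene in the 30 libraries, by genotype and state; points are libraries and bars are group means of 5. Irf7 lay between 68.4 and 155 CPM in TRα1PV M0 and between 32.0 and 59.9 CPM in WT M0, and Irf4 was under 1 CPM in all M1 libraries.

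The first comparison asked how unstimulated TRα1PV macrophages differ from unstimulated WT macrophages. Irf7 and Irf9 were higher in TRα1PV, by 2.90 times and 1.32 times in the ratio of means, and no member was called lower. Of the 8 members, 2 were called (25%), against 26.0% of all genes tested (12.0% called higher), so the count itself is near the background. The ranges of the 5 libraries did not overlap for the same 2 genes, against 12.5% of all genes (5.57% higher). The median difference over the 8 members was -0.03 log2, beside -0.01 over all genes.

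Irf7 (ENSMUSG00000025498), the IRF that amplifies type I interferon production, stood at 59.9, 37.1, 41.0, 32.0 and 32.4 CPM in WT M0 replicates 1 to 5. In TRα1PV M0 it stood at 103, 139, 122, 155 and 68.4 CPM. Every TRα1PV library was above every WT library, with WT replicate 1 and TRα1PV replicate 5 nearest to each other. The means were 40.5 ± 11.5 and 118 ± 33.5 CPM (SD, n = 5 each), a difference of 1.54 ± 0.20 log2 (SE, adjusted p = 8.91e-07). It was called under all 19 alternatives, with differences of 1.42 to 1.72, and was 1.51 ± 0.21 (adjusted p = 3.82e-06) without WT M0 replicate 2. In bulk RNA, a different share of cells of some type and a different amount of RNA per cell cannot be told apart.

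Irf9 (ENSMUSG00000002325), the DNA-binding subunit of ISGF3, was at 60.7, 58.6, 59.3, 51.6 and 50.5 CPM in WT M0 and at 73.0, 80.4, 74.6, 78.9 and 64.7 CPM in TRα1PV M0. The groups did not overlap, and the difference was smaller than that of Irf7, at 0.40 ± 0.08 log2 (adjusted p = 0.000553). It was called under all 19 alternatives, with 0.37 to 0.45 log2.

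Stat2, which encodes a subunit of ISGF3, was higher in TRα1PV M0 as Irf9 was. It stood at 102 to 143 CPM in WT and 166 to 301 CPM in TRα1PV, a difference of 1.00 ± 0.11 log2 (adjusted p = 7.86e-08). Among 12 ISGF3 targets, antiviral genes that the complex induces, 12 were called higher and 0 lower, with a median of 1.69 log2 beside -0.01 over all genes, and the 12 stayed called under each of 18 alternatives. They included Mx1, a GTPase that restricts viruses (2.00 ± 0.18), and Usp18, a feedback inhibitor of interferon receptor signalling (1.56 log2). The summed level of the 12 was 375 to 674 CPM in WT M0 and 936 to 2211 CPM in TRα1PV M0. Within TRα1PV M0, replicate 4 had the highest Irf7, Stat2 and summed target level and replicate 5 the lowest of each, and within WT replicate 1 had the highest.

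**Figure D2:**
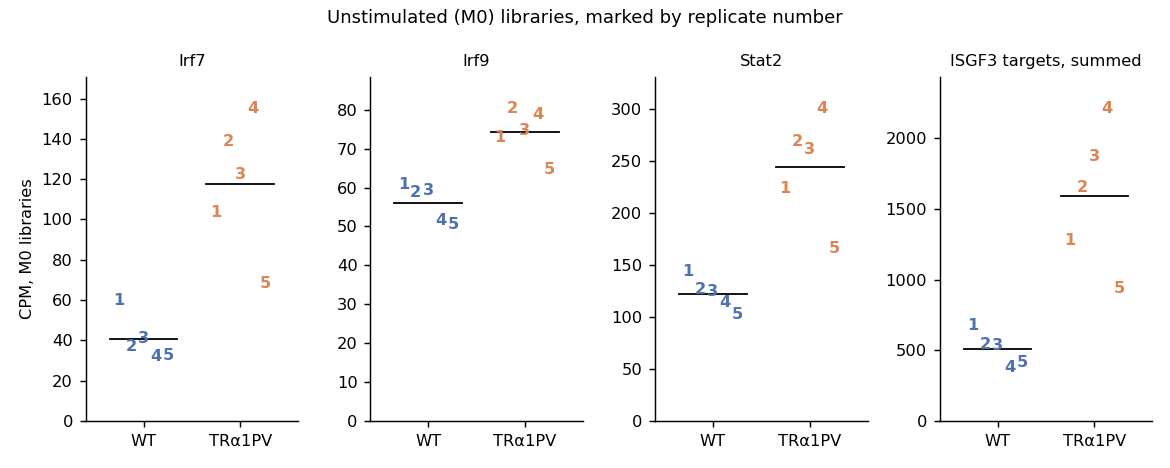
CPM of Irf7, Irf9, Stat2 and the sum of 12 ISGF3 targets in the M0 libraries; each digit is a library, printed as its replicate number, and bars are means of 5. TRα1PV replicate 5 is the lowest TRα1PV library in every panel and still lies above all WT libraries, at 68.4 CPM for Irf7 against at most 59.9.

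Upstream genes of the family's pathway split in M0, where 1876 of all 15686 genes were called higher and 2196 lower. Of 14 sensors and adaptors, 6 were called higher and 2 lower, among them the RNA sensors Rigi (1.02 ± 0.13 log2, adjusted p = 4.64e-07) and Dhx58 (0.92) and the DNA sensor Cgas (0.54), which were higher, and Mavs, the mitochondrial adaptor of the RNA sensors, which was lower (-0.45 ± 0.08, adjusted p = 0.000181). Of 12 kinases and scaffolds that act on IRF proteins, 2 were higher (1 to 4 over 18 alternatives) and 3 lower (1 to 4), with Trim21, a ubiquitin ligase that targets IRF proteins, higher by 0.52 ± 0.07 and the IRF3 and IRF7 kinase gene Ikbke lower (-0.38). Of the 6 ligands listed, only Ifnb1 passed the filter, with 4 reads over the 5 WT M0 libraries and 11 over the 5 TRα1PV M0 libraries, and it was not called in M0. Of 13 receptors, JAKs and STATs, 7 were higher (3 to 7 over 18 alternatives) and 1, Stat6, lower (-0.24). Of 11 DNA-binding partners and coregulators, 2 were higher, Batf3 (0.76) and Ikzf1 (0.26), and 0 lower.

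Downstream, 5 of 8 IRF1 targets were called higher in TRα1PV M0 (3 to 5 over 18 alternatives) and 0 lower, including Il15 (0.70 log2), Gbp2 (0.72) and the peptide transporter Tap1 (0.60). Irf1 itself (ENSMUSG00000018899) stood at 117 to 140.3 CPM in WT and 104 to 138 CPM in TRα1PV, a difference of -0.09 ± 0.08 (adjusted p = 0.401). Of 5 IRF3 and IRF7 targets, 4 were higher, with the chemokine gene Cxcl10 at 11.2 ± 2.42 CPM in WT and 47.0 ± 16.3 CPM in TRα1PV (2.08 ± 0.22 log2, adjusted p = 4.49e-08); 2 of these 5, Isg15 and Ifit1, are also on the ISGF3 list. Of 3 tested IRF5 targets, 0 were called. Of 8 IRF8 targets, 1 was higher, Naip5 (0.29). Of 6 IRF4-associated genes of alternative activation, 2 were higher (Chil3 1.18, Mrc1 0.60) and 3 lower (1 to 3 over 18 alternatives), among them the histone demethylase gene Kdm6b (-1.08 ± 0.07).

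The remaining members had small differences in M0, and their groups overlapped. Irf4 (ENSMUSG00000021356) stood at 8.60 to 12 CPM in WT M0 and 8.81 to 16.3 CPM in TRα1PV M0, with 0.30 ± 0.13 log2 (adjusted p = 0.0781). With the replicate number as a block it was 0.30 with an adjusted p of 0.0493, and without WT M0 replicate 2 it was 0.36 (adjusted p = 0.0317) and without TRα1PV M0 replicate 4 it was 0.42 (adjusted p = 0.00952). Irf3 (ENSMUSG00000003184), the constitutively expressed partner of IRF7 in type I interferon induction, was at 30.6 to 46.1 CPM in WT and 33.2 to 39.7 CPM in TRα1PV, with -0.14 ± 0.08 (adjusted p = 0.191). The lowest WT value of Irf3 and of Irf5 and the highest WT value of Irf2, 165 CPM against 97.4 to 105 CPM in the other 4, all came from WT M0 replicate 2. Without that library Irf3 was lower in TRα1PV by -0.22 log2 (adjusted p = 0.0117), Irf2 (ENSMUSG00000031627) turned from -0.06 to 0.11 without being called, 4 members were called instead of 2, and calls over all genes rose from 4072 to 6143. Irf5 (ENSMUSG00000029771) and Irf8 (ENSMUSG00000041515) differed by -0.01 ± 0.09 (adjusted p = 0.965) and -0.06 ± 0.07 (adjusted p = 0.569).

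Markers of other marrow cells also moved with genotype in M0. All 10 granulocyte precursor markers were called higher in TRα1PV (7 to 10 over 18 alternatives), with a summed level of 178 to 367 CPM against 48.4 to 209.7 CPM in WT. All 4 inflammatory monocyte markers were higher (2 to 4 over the alternatives), at 1048 to 1282 CPM against 489 to 572 CPM. All 6 tested fibroblast and stromal markers were lower (4 to 6), at 0.675 to 1.23 CPM in sum against 3.63 to 14.6 CPM. Of 7 dendritic cell markers 2 were higher (1 to 3), at 2.33 to 3.53 CPM in sum against 1.26 to 2.76 CPM and with each of the 7 under 1 CPM. The 1 tested B cell marker was higher (0 to 1), with all 7 summing to 5.05 to 8.13 CPM against 3.09 to 6.15 CPM and Vpreb3 without a read. Of 7 macrophage markers 1 was higher and 1 lower. The share of reads outside genes was 11.7 to 14.4% in TRα1PV M0 and 9.42 to 13.9% in WT M0, and with that share as a covariate Irf7 differed by 1.68 log2 (adjusted p = 2.00e-06) and Irf9 by 0.42 (adjusted p = 0.0012). The part of the marker genes' cells in the Irf7 and Irf9 differences was not tested.

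The second comparison set TRα1PV against WT after LPS with interferon-γ. No member was called by edgeR (0 of 8, against 20.0% of all genes), 3 had an unadjusted p under 0.05 (Irf2, Irf5 and Irf9), and DESeq2 also called 0. Irf7 was at 2336 to 2861 CPM in WT M1 and 2474 to 3006 CPM in TRα1PV M1, and the groups overlapped, with 0.07 ± 0.19 log2 (adjusted p = 0.827). Irf1 was at 1811 to 2234 CPM in WT and 1958 to 2182 CPM in TRα1PV, with 0.05 ± 0.08 (adjusted p = 0.66). Both genes were near the same level in the 2 genotypes in this state.

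Modest differences in 1 direction were seen for Irf2, Irf5 and Irf9 in M1, each below the threshold. Irf2, the competitor of IRF1, was at 165, 178, 195, 167 and 185 CPM in WT and at 217, 210.1, 196, 212 and 203 CPM in TRα1PV, so the groups did not overlap, by a margin of about 1 CPM. The difference was 0.22 ± 0.10 log2 (adjusted p = 0.107). Irf9 was at 95.0 to 113 CPM in WT and 115 to 121 CPM in TRα1PV, with 0.19 ± 0.08 (adjusted p = 0.104). The ranges did not overlap for these 2 members, against 11.6% of all genes (5.65% higher in TRα1PV). Irf5 was at 585, 652, 526, 537 and 605 CPM in WT and at 731, 664, 726, 613 and 683 CPM in TRα1PV, with overlap and 0.23 ± 0.09 (adjusted p = 0.0669; 0.0454 without WT M1 replicate 2 and 0.0426 without TRα1PV M1 replicate 4). Fitted on the 2 M1 groups alone, the 3 genes were called (adjusted p = 0.0262 for Irf2, 0.0344 for Irf5 and 0.0333 for Irf9). Irf3 differed by -0.02 ± 0.08, Irf8 by 0.00 ± 0.07, and Irf4, with 3 to 12 reads per M1 library, by -0.31 ± 0.41.

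Around the family in M1, Ifnb1, the type I interferon gene that IRF3 and IRF7 drive, was at 1.88 to 2.75 CPM in WT and 3.93 to 5.04 CPM in TRα1PV, a difference of 0.86 ± 0.17 log2 (adjusted p = 0.00068). It was the only 1 of 5 IRF3 and IRF7 targets called in M1 (1 to 2 higher over 18 alternatives). None of the 12 ISGF3 targets was called by edgeR, and 0 to 4 were called over 18 alternatives. Over all 15686 genes, 1528 were called higher and 1604 lower in M1. Sensors and adaptors split, with 3 of 14 higher (1 to 4) and 2, Sting1 and Ticam2, lower (1 to 6). Among 12 kinases and scaffolds 0 were higher and 1, Chuk, lower (0 to 3). Of 13 receptors, JAKs and STATs 4 were higher and 0 lower, led by Il4ra, the interleukin-4 receptor chain (1.05 ± 0.13, adjusted p = 1.29e-06). Of 11 partners and coregulators 4 were higher (3 to 6 over 18 alternatives) and 0 lower, including Spi1, which encodes the IRF4 and IRF8 partner PU.1 (0.27 ± 0.07), Batf (0.44) and Irf2bpl (0.73). Of 8 IRF1 targets 1 was called lower (1 to 2 over 18 alternatives) and 0 higher (0 to 1), the called gene being the MHC class II transactivator Ciita, at 17.7 to 25.2 CPM in WT and 3.03 to 8.73 CPM in TRα1PV (-2.07 ± 0.25, adjusted p = 1.02e-06).

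All 3 tested IRF5 targets were called lower in TRα1PV M1, while Irf5 itself had a difference of the opposite sign. Il6 was at 17.7 to 39.1 CPM in WT and 10.8 to 27.6 CPM in TRα1PV (-0.81 ± 0.22, adjusted p = 0.0104), and the groups overlapped. Tnf (-0.52 ± 0.15, adjusted p = 0.0167) and Il12b (-0.68 ± 0.24, adjusted p = 0.0443) overlapped as well. These calls were less firm than the count of 3, since 0 to 3 were called over 18 alternatives, and 0 without WT M1 replicate 5. Of 8 IRF8 targets 2 were lower (1 to 6 over 18 alternatives), Klf4 (-0.41 ± 0.09) and Il12b. Of 6 IRF4-associated genes 3 were higher, including Pdcd1lg2 (0.92 ± 0.12) and Arg1 (0.90 ± 0.22), and 1 (1 to 2), Kdm6b, lower (-0.25). Inflammatory monocyte markers were higher in TRα1PV M1 for 2 of 4 (1 to 2 over the alternatives), at 277 to 378 CPM in sum against 193 to 260.0 CPM, and fibroblast markers lower for 4 of 6 (1 to 5 over 18 alternatives), with 2 of 7 dendritic cell markers and 1 of 7 macrophage markers lower and 1 of 10 granulocyte precursor markers and the 1 tested B cell marker higher. Their part in these results was not tested.

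The third comparison set the genotypes against each other after interleukin-4. Of the 8 members 2 were called, Irf1 and Irf5, both lower in TRα1PV (25%, against 13.1% of all genes called and 6.96% called lower). The ranges did not overlap for 2 members, Irf1 and Irf3, against 13.8% of all genes (7.87% lower). The median difference over the 8 members was -0.17 log2, beside -0.01 over all genes, and Irf7 alone had a positive difference.

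Irf1 was at 250.1, 303, 278, 254 and 321 CPM in WT M2 and at 210.5, 234, 231, 221 and 240.4 CPM in TRα1PV M2. The highest TRα1PV library was below the lowest WT library, and the difference was -0.31 ± 0.08 log2 (adjusted p = 0.00761). It was called under all 19 alternatives, with adjusted p from 0.0014 to 0.0403. Irf5 was at 239, 255, 247, 227 and 259 CPM in WT M2 and at 234, 204, 190.2, 197 and 194 CPM in TRα1PV M2. TRα1PV replicate 1 fell within the WT range and the other 4 below it. The difference of -0.27 ± 0.09 (adjusted p = 0.0479) was close to the threshold and was not called under 11 of 19 alternatives, 8 of which left out 1 library (WT replicate 1, 2, 3 or 5 or TRα1PV replicate 2, 3, 4 or 5), with adjusted p of 0.0747 to 0.118 in these.

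Irf3 and Irf9 had differences of the same sign in M2 that were not called. Irf3 was at 36.9 to 39.3 CPM in WT and 30.3 to 33.7 CPM in TRα1PV, with -0.22 ± 0.08 (adjusted p = 0.0599). Irf9 was at 35, 38.2, 38.5, 36.5 and 38.6 CPM in WT and at 26.2, 27.2, 32.1, 40.8 and 31.1 CPM in TRα1PV, with -0.24 ± 0.08 (adjusted p = 0.0526). Replicate 4 of TRα1PV was above all WT libraries and the other 4 below them. Without that library the difference was -0.36 (adjusted p = 0.00147), and Irf9 was called under 5 of 19 alternatives. The same library had the highest M2 value of Irf7, 39.2 CPM against 15.0 to 27.1 CPM in the other 9. Irf7 differed by 0.46 ± 0.20 (adjusted p = 0.124), Irf4 by -0.11 ± 0.12 (adjusted p = 0.548), Irf2 by -0.11 ± 0.10 (adjusted p = 0.443) and Irf8 by -0.07 ± 0.07 (adjusted p = 0.52).

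**Figure D3:**
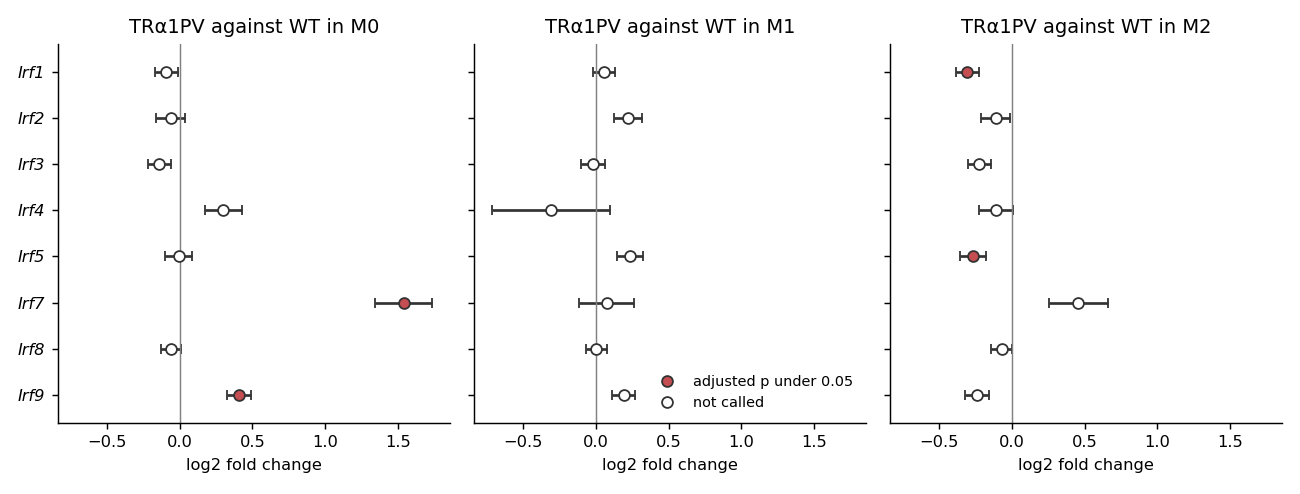
Log2 fold change of each IRF gene in TRα1PV against WT in M0, M1 and M2 on a shared axis, with bars of 1 SE from the edgeR fit and filled points where the adjusted p was under 0.05. Irf7 in M0, at 1.54, is the largest difference, and in M2 all members but Irf7 lie left of 0.

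Among related genes in M2, 0 of 12 ISGF3 targets were called between genotypes, by edgeR or under any of 18 alternatives. Spi1 was lower (-0.21 ± 0.07, adjusted p = 0.0309), but not called under 8 of 19 alternatives, 6 of which left out 1 library (WT M2 replicate 1, 2 or 5 or TRα1PV M2 replicate 2, 4 or 5). Also lower were Mavs (-0.47), Ikbke (-0.46) and Ciita (-1.03 ± 0.24, adjusted p = 0.00414). Over all 15686 genes, 963 were called higher and 1092 lower in M2. Sensors and adaptors had 0 of 14 higher (0 to 2 over 18 alternatives) and 3 lower (2 to 3). Among 12 kinases and scaffolds 0 were higher and 1 lower (1 to 3). The 11 partners and coregulators had 0 higher and 2 lower (0 to 3). Among 8 IRF1 targets 0 were higher (0 to 2) and 2 lower (1 to 4). Receptors, JAKs and STATs had 3 of 13 higher (1 to 5), among them Jak2 (0.41) and Jak1 (0.16). In that list 1 (1 to 3), Stat6, was lower (-0.22). Of the 6 IRF4-associated genes, 1 was higher, Mrc1 (0.40; 0 to 2 higher over 18 alternatives), and 1 lower, Kdm6b (-0.47 ± 0.07). The strongly induced Arg1 (-0.02 ± 0.19, adjusted p = 0.969) and Retnla (0.14 ± 0.25, adjusted p = 0.749) were not called. Granulocyte precursor markers were higher in TRα1PV M2 for 7 of 10, at 98.8 to 229.8 CPM in sum against 28.7 to 93.6 CPM, and fibroblast markers lower for 4 of 6. Of 4 inflammatory monocyte markers 2 were higher and 1 lower, at 147 to 187 CPM in sum against 59.1 to 107 CPM with no overlap, and 2 of 7 dendritic cell markers were higher (0 to 2 over 18 alternatives). Macrophage markers were lower for 1 of 7. Their part in the Irf1 and Irf5 differences was not tested.

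The difference of the genotype effect between states was tested directly. Between M1 and M0, 1 of 8 members was called (26.6% of all genes, 13.3% lower), Irf7, whose genotype effect was lower in M1 by -1.47 ± 0.27 log2 (adjusted p = 0.000338), and it was called under all 29 alternatives. Without WT M0 replicate 2, Irf5 was called as well in this contrast, at 0.34 (adjusted p = 0.0108). All 12 ISGF3 targets were called lower in this contrast, with a median of -1.55 log2, as was Stat2 (-0.72 ± 0.16). Between M2 and M0, 2 of 8 members were called (2.16% of all genes, 1.46% lower). These were Irf9, at -0.65 ± 0.12 (adjusted p = 0.00172, called under all 29 alternatives), and Irf7, at -1.08 ± 0.28 (adjusted p = 0.0314, not called under 11 of 29). For Irf7, 10 of these 11 left out 1 library (WT M0 replicate 4 or 5, TRα1PV M0 replicate 2, 3 or 4, WT M2 replicate 2, 3 or 5, or TRα1PV M2 replicate 1 or 2), with adjusted p of 0.052 to 0.0766. Of the ISGF3 targets 11 of 12 were lower between M2 and M0, with a median of -1.54 log2. Both tests and the M0 comparison share the M0 libraries. Irf9 thus had a positive genotype difference in M0 and a negative one in M2, of which the first was called. Without scaling factors the split of all called genes moved from 2091 higher and 2084 lower to 1638 and 2473 between M1 and M0, and from 110 and 229 to 73 and 268 between M2 and M0.

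Responses to stimulation were large, and are taken in the order of the proteins' roles. All 8 members were called in M1 against M0 in both genotypes, 6 higher and 2 lower (79.6% of all genes called in WT, 39.4% higher and 40.2% lower, and 80.7% in TRα1PV, 40.0% higher and 40.7% lower). In M2 against M0, 7 of 8 were called in each genotype, 4 higher and 3 lower (52.4% of all genes in WT, 25.2% higher and 27.2% lower, and 57.7% in TRα1PV, 28.3% higher and 29.4% lower). The medians over the 8 members were 0.77 log2 in WT and 0.83 in TRα1PV for M1, and 0.25 and 0.07 for M2, beside -0.02 over all genes in each. These state comparisons depend on scaling. Without scaling factors the median of all genes was -0.49 in WT and -0.53 in TRα1PV for M1 (-0.26 and -0.24 with upper-quartile factors), and -0.12 and -0.16 for M2. The called genes then split into 3907 higher and 8838 lower for M1 in WT (6184 and 6303 with TMM, 4913 and 7560 with upper-quartile factors) and 4042 and 8958 in TRα1PV (6275 and 6383, 5258 and 7487). For M2 they split into 3056 and 5418 in WT (3949 and 4264 with TMM) and 3248 and 6026 in TRα1PV (4442 and 4604). Members' directions did not flip under any scaling, and 3 calls were lost without factors, Irf2 in M1 of WT (0.17, adjusted p = 0.0798), Irf9 in M1 of TRα1PV (0.16, adjusted p = 0.0622) and Irf5 in M2 of TRα1PV (0.16, adjusted p = 0.141), while Irf3 was then called lower in M2 of TRα1PV (-0.30, adjusted p = 0.00438). With the share outside genes as a covariate, Irf5 in M2 of TRα1PV was 0.03 (adjusted p = 0.795), and Irf3 was called lower in M2 of both WT (-0.22, adjusted p = 0.0122) and TRα1PV (-0.36, adjusted p = 0.000341).

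Cell type markers moved with state too. All 10 granulocyte precursor markers were lower in M1 in both genotypes, and 6 in WT and 5 in TRα1PV were lower in M2. Of 6 tested fibroblast markers, 5 were lower and 1 higher in WT M1, 1 was lower and 1 higher in TRα1PV M1, and 2 were lower in WT M2. Summed macrophage markers were at 28964 to 33582 CPM in WT M0, 8506 to 9915 CPM in WT M1 and 19422 to 21813 CPM in WT M2, with 3 of 7 higher and 4 lower in M1 and 0 higher and 4 lower in M2. In TRα1PV they were at 26355 to 31124 CPM in M0, 7406 to 10053 CPM in M1 and 18571 to 20779 CPM in M2. There 3 of 7 were higher and 3 lower in M1, and 1 was higher and 5 lower in M2. Of 4 inflammatory monocyte markers 2 were higher and 2 lower in M1 in both genotypes, and in M2 3 were lower in WT and 4 in TRα1PV. Of 7 dendritic cell markers, 3 were higher and 4 lower in WT M1, 2 higher and 4 lower in TRα1PV M1, and 1 higher and 2 lower in M2 of both, and the 1 tested B cell marker was lower in both states and genotypes. Their part in the state differences of the members was not tested.

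Irf7 and Irf3, the inducers of type I interferon genes, moved in opposite directions with M1. Irf7 rose from 40.5 to 2588 CPM in WT, a ratio of 63.9, and from 118 to 2724 CPM in TRα1PV, a ratio of 23.2, with log2 differences of 6.0 ± 0.24 and 4.53 ± 0.22. Irf3 fell from 39.5 to 22.0 CPM in WT (-0.85 ± 0.08) and from 35.8 to 21.6 CPM in TRα1PV (-0.73 ± 0.08), with M1 libraries at 19.7 to 24.5 CPM below every M0 library. With M2, Irf7 fell in both genotypes, by -1.11 ± 0.20 in WT and -2.19 ± 0.20 in TRα1PV, while Irf3 was not called (WT -0.07, adjusted p = 0.469; TRα1PV -0.16, adjusted p = 0.0964) with TMM scaling and no covariate. Ordered by level, Irf7 in WT M2, TRα1PV M2 and WT M0 overlapped from neighbour to neighbour, TRα1PV M0 lay above these, and the 2 M1 groups overlapped far above.

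Irf9 rose with M1, from 56.1 to 104 CPM in WT (0.89 ± 0.08) and from 74.3 to 118 CPM in TRα1PV (0.67 ± 0.08), and fell with M2, to 37.3 CPM in WT (-0.59 ± 0.08) and 31.5 CPM in TRα1PV (-1.24 ± 0.08). Its groups kept a clear order, with overlap only between the 2 M2 groups, then WT M0, TRα1PV M0, WT M1 and TRα1PV M1, each above the last with no shared range. All 12 ISGF3 targets rose with M1 in both genotypes, with a median of 5.92 log2 in WT and 4.26 in TRα1PV. With M2, 10 of 12 fell and 1 rose in WT and all 12 fell in TRα1PV, with medians of -1.51 and -3.10. Stat2 rose by 3.27 in WT M1 and 2.55 in TRα1PV M1.

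Irf1 rose with M1 from 127 to 2018 CPM in WT, a ratio of 15.8, and from 119.5 to 2096 CPM in TRα1PV, a ratio of 17.5. It rose with M2 as well, by 1.14 ± 0.08 log2 in WT and 0.93 ± 0.08 in TRα1PV, and M2 libraries at 210.5 to 321 CPM lay between all M0 and all M1 libraries. All 8 IRF1 targets rose with M1 in both genotypes, among them the guanylate-binding protein gene Gbp2 (6.89 log2 in WT, 5.94 in TRα1PV), Cd274 (6.16 and 5.81) and Tap1 (3.91 and 3.42). With M2, 5 rose and 1 fell in WT and 4 rose and 2 fell in TRα1PV, with Gbp2 at 2.17 and 1.08. Irf2 rose in both states and genotypes. With M1 it rose by 0.64 in WT (0.17 to 0.84 over 19 alternatives) and 0.93 in TRα1PV (0.42 to 1.21). With M2 it rose by 0.60 in WT (0.51 to 0.81) and 0.55 in TRα1PV (0.41 to 0.80). Its WT M0 and M2 ranges overlapped because of WT M0 replicate 2 at 165 CPM, which also raised the M0 mean behind both WT differences.

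Irf5 rose with M1 from 166 to 581 CPM in WT (1.81 ± 0.09) and from 165 to 683 CPM in TRα1PV (2.05 ± 0.09), and less with M2 (0.57 ± 0.09 and 0.30 ± 0.09, the second not called under 2 of 19 alternatives). Its 3 tested targets rose with M1 in both genotypes, Il12b by 11.29 and 11.02 log2, Il6 by 8.14 and 6.63 and Tnf by 4.73 and 4.43. With M2, 1 of the 3 rose and 1 fell in each genotype. Il6 rose (3.55 in WT, 3.00 in TRα1PV) and Tnf fell (-1.08 and -1.47). Irf8, the lineage factor, rose with M1 and fell with M2. It stood at 218 to 278 CPM in WT M0, 368 to 437 CPM in WT M1 and 139.8 to 146 CPM in WT M2, which is 0.66 ± 0.07 higher with M1 and 0.81 lower with M2 (-0.81 ± 0.07). In TRα1PV the same changes were 0.72 ± 0.07 and -0.82 ± 0.07, and the 3 states did not overlap in either genotype. Among 8 IRF8 targets, 5 rose and 1 fell with M1 in WT and 5 rose and 3 fell in TRα1PV, with Klf4 at 5.75 and 5.34 and the oxidase subunit gene Cybb at 0.94 and 0.61. With M2, Cybb fell (-0.55 and -0.63), Klf4 rose (3.83 and 3.78), and 1 target rose and 4 fell in each genotype.

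Irf4 rose with M2 and fell with M1, a pair of directions that no other member showed. It stood at 106, 114, 94.3, 123 and 104 CPM in WT M2 and at 115, 109, 94.9, 89.2 and 93.1 CPM in TRα1PV M2, about 10.4 times and 7.82 times the M0 means of 10.4 and 12.8 CPM (3.38 ± 0.13 and 2.97 ± 0.13 log2). In M1 it nearly disappeared, with 42 reads over the 5 WT libraries and 34 over the 5 TRα1PV libraries, or 0.302 ± 0.106 and 0.249 ± 0.0926 CPM. This was 34.5 times below M0 in WT and 51.5 times below in TRα1PV (-5.09 ± 0.21 and -5.70 ± 0.22). No library of 1 state overlapped with a library of another. Of the 6 IRF4-associated genes, 5 rose with M2 in WT and 6 in TRα1PV, with Retnla, a secreted marker of alternative activation, at 4.57 to 21.9 CPM in WT M0 and 8589 to 11075 CPM in WT M2 (10.04 ± 0.38 log2). Pdcd1lg2 rose by 8.82 in WT and 8.56 in TRα1PV. With M1, Mrc1 fell together with Irf4 (-5.72 and -5.78), while Arg1 (3.90 and 6.23) and Pdcd1lg2 (5.14 and 5.51) rose. Among partners of IRF4 and IRF8, Batf3 rose with M2 (3.54 in WT, 2.52 in TRα1PV), and Batf2 (4.94 and 4.61) and Batf (2.64 and 3.18) rose with M1. Batf3 and Spi1 were also called higher with M1 in both genotypes, Batf with M2 in both and Batf2 with M2 in WT. Of all 11 partners and coregulators, 5 were higher and 4 lower with M1 in each genotype. With M2, 4 were higher and 4 lower in WT, and 3 higher and 6 lower in TRα1PV.

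**Figure D4:**
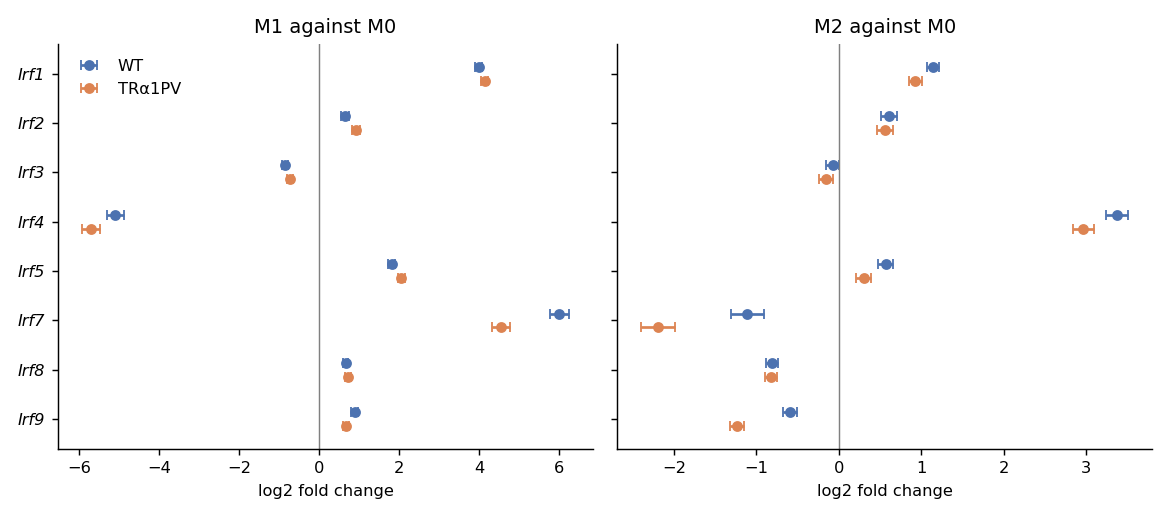
Log2 fold change of each IRF gene in M1 (left) and M2 (right) against M0, in WT and TRα1PV, with bars of 1 SE from the edgeR fit; the axes of the panels differ. Irf4 lies at -5.09 and -5.70 in M1 and at 3.38 and 2.97 in M2, and Irf7 is the gene with the widest gap between genotypes, 6.0 against 4.53 in M1.

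Likeness of pattern was measured as the root mean square difference between 6 group means of log2 CPM, each gene centred on its own mean, among 15605 other tested genes with a symbol. The points share the same libraries, and the measure is descriptive. Nearest to Irf7 was Phf11d, at 0.190 log2, and nearest to Irf9 were Flt3l (0.0767) and Parp8 (0.0789). Nearest to Irf5 were Sertad1 (0.0733), Psme1 (0.0756) and H2-K1 (0.0822), and nearest to Irf8 was Peak1 (0.0640). Irf4 had no neighbour as near, with Bex1 at 0.345, Sema6d at 0.358 and Egr2 at 0.381. The measure is not scaled to the span of a gene over the groups. That span was 8.54 log2 for Irf4, 7.19 for Irf7, 4.14 for Irf1, 2.06 for Irf5, 1.92 for Irf9 and 1.54 for Irf8. The M1 means of Irf4 rest on 3 to 12 reads per library. For Irf1 the 3 nearest were 4930458B22Rik (0.117), Hmcn2 (0.122) and Ak3l2-ps (0.143), of which 0 remained among the 3 nearest when all 30 libraries were used in place of 6 means. Irf2 and Irf3 spanned under 1 log2 over the groups and were not compared.

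Several members share exonic bases with a neighbouring gene in a mouse annotation other than the authors'. Whether counting used strand is unknown here, so reads on these bases may be shared between the genes or counted for neither. On the opposite strand, Irf7 overlaps Phrf1, which was lower in TRα1PV M0 (-0.30 ± 0.05, adjusted p = 2.25e-05), the direction opposite to that of Irf7. Irf9 overlaps Rnf31 on the same strand, and Rnf31 was not called in M0 (0.11 ± 0.09, adjusted p = 0.335) but was higher in TRα1PV M1 (0.31 ± 0.08, adjusted p = 0.00865). Rnf31 rose with M1 by 1.93 in WT and 2.12 in TRα1PV and fell with M2 in TRα1PV (-0.51), as Irf9 did. Its fall with M2 in WT was not called (-0.20). Irf1 overlaps Gm17334, which was lower in TRα1PV M2 (-0.59 ± 0.16, adjusted p = 0.0144) as Irf1 was, with 5609 reads in all 30 libraries. Gm17334 also rose with M1, by 3.42 in WT and 4.09 in TRα1PV, and with M2, by 0.86 and 0.67, as Irf1 did. Irf3 overlaps Bcl2l12 and Irf5 overlaps Tnpo3, neither of which was called between genotypes in M0 or M2. Tnpo3 was lower in TRα1PV M1 (-0.19 ± 0.05, adjusted p = 0.00281), the sign opposite to that of Irf5 there. With M1, Phrf1 fell in WT (-0.41) and Bcl2l12 rose in WT (0.27) and TRα1PV (0.52), against the directions of Irf7 and Irf3. Tnpo3 rose with M1 in WT (0.24), as Irf5 did. The part of reads on shared bases in the state differences was not tested. Irf2, Irf4 and Irf8 share no exonic bases with another gene there.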

How the data were processed

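Per the submitters' processing notes, reads were processed with Trimmomatic 0.39, HISAT2 2.2.1, HTSeq 1.99.2 and FastQC 0.11.9 on GRCm39, and Cufflinks, edgeR, limma and R 4.3.2 are also named, without roles. The annotation release and strand setting are not stated there. Libraries were made with a KAPA mRNA kit, per the labels' protocols. The authors deposited raw read counts per Ensembl gene, 1 file per library. The 5 lines that name no gene were left out; reads outside genes made up 8.66 to 14.4% of each library. Symbols were found for 52081 of 55414 IDs.

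Counts were fitted in R 4.3.3 with edgeR 4.0.16 (TMM, filterByExpr with a minimum count of 10 and a minimum total of 15, glmQLFit and glmQLFTest over 30 libraries in 6 groups, 24 residual degrees of freedom). P-values were adjusted by Benjamini-Hochberg over all 15686 genes, and the SE was taken from the fold change and the F statistic (log2 fold change over the root of F). Genotype was compared within each state, state within each genotype, and the genotype effect between states, 9 comparisons in all. CPM per kb uses union exons of another annotation (GENCODE M21). The steps were tested on simulated data.

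The members, the 11 pathway lists (96 symbols, 89 tested) and the 7 cell type lists were chosen with earlier results of these data known, and so was the rule for named genes. That rule takes all 8 members and, of each list and comparison, up to 4 called genes with the smallest p with mean log2 CPM not below 0; other list genes named were chosen after their values were seen. Values of 1 list gene are not reported here, though it stays in the counts of its list. Promoters with their sequences come from RefSeq.

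Replicate numbers stand under a batch tag in the labels. Deviations of same-numbered WT and TRα1PV libraries from their group means correlated at -0.374 to 0.259 (M0), -0.17 to 0.17 (M1) and -0.0229 to 0.212 (M2). Alternatives were no scaling, upper-quartile or RLE factors, DESeq2 1.42.0, limma 3.58.1 voom, no filter, a replicate block, a covariate for reads outside genes, only the compared groups, and each library left out. The fit with no scaling was chosen after seeing the data.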

Additional observations from a re-analysis of the deposited data

Results flagged for a closer look

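Differences of the genotype effect between states were called for Irf7 and Irf9. For Irf7 the TRα1PV minus WT difference was lower in M1 than in M0 by -1.47 log2, and lower in M2 than in M0 by -1.08 log2. For Irf9 it was lower in M2 than in M0 by -0.65 log2.

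Of 48 groups of 5 libraries, 2 held a library far from the other 4 by Dixon's ratio (above 0.71), where chance gives about 1 in 20. Irf2 stood at 165 CPM in WT M0 replicate 2, the library with the highest mitochondrial share, and Irf3 stood at 39.3 CPM in WT M2 replicate 5 against 36.9 to 37.5 CPM in the other 4.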

How the results depend on the processing

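The calls of Irf7 and Irf9 in M0 and of Irf1 in M2 held under all 19 alternatives. In M0, called members numbered 2 (2 to 4 with each library left out) and called genes 4072 (2941 to 6143, the highest without WT M0 replicate 2), with 2458 when only the compared groups were fitted. In M1, called members went from 0 to 1 with the share outside genes as a covariate, 3 with only the compared groups and 0 to 1 with each library left out, and called genes from 3132 to 5467 with the covariate (2157 to 3522 with each library left out). In M2, called members went from 2 to 1 with upper-quartile factors, no filter or the covariate, 4 with DESeq2 and 1 to 2 with each library left out. Called genes there went from 2055 to 4008 with only the compared groups (1270 to 2709 with each library left out). For the genotype effect in M1 minus M0, called members went from 1 to 2 with the covariate and 1 to 2 with each library left out (3141 to 5993 genes). For M2 minus M0, called members went from 2 to 3 with the covariate (Irf5 added, -0.34, adjusted p = 0.0304), 1 with only the compared groups and 1 to 2 with each library left out, and called genes from 339 to 512 with DESeq2, 579 with the covariate and 252 to 511 with each library left out. The cause of these changes was not tested.

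With the replicate number as a block, Irf4 in M0 was called (0.30, adjusted p = 0.0493), and no other call of a member between genotypes changed.

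Signs turned only where members were not called. In M0, Irf2 was 0.11 without WT M0 replicate 2 (-0.117 to 0.11 with each library left out), Irf8 was 0.0198 with the covariate, and Irf5 was 0.00687 without scaling, 0.0042 with voom, 0.000248 without the filter, 0.183 with the covariate, 0.00344 with only the compared groups and -0.106 to 0.0477 with each library left out. In M1, Irf3 was 0.0247 with the covariate and -0.0654 to 0.0186 with each library left out. Irf8 there was -0.0175 without scaling, -0.00249 with voom, -0.0144 without the filter, -0.000584 with the replicate block, -0.00698 with only the compared groups and -0.0516 to 0.0531 with each library left out. For M2 minus M0, Irf8 was 0.000571 with upper-quartile factors and -0.0538 to 0.042 with each library left out, and Irf2 was -0.221 to 0.00234. Over members, 1446 of the alternative values kept sign and call, 26 lost a call, 23 gained one and 32 turned sign. Over the other named genes 5455 kept both, 203 lost a call and 0 turned. By the rule for named genes these were picked among called genes with the smallest p, so their counts cannot be set against those of the members. Irf4 in M1, with 3 to 12 reads per library, is limited by depth.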
